A study of Arabidopsis thaliana with 6 samples.

Results

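The 39 genes described here are nuclear genes of Arabidopsis thaliana that encode proteins of the plastid ribosome, taken from a fixed list of locus identifiers. They comprise 9 genes for small subunit proteins (PRPS), 24 for large subunit proteins (PRPL) and the 6 genes PSRP1 to PSRP6, which encode proteins first described as specific to plastid ribosomes. All 39 were among the 33555 genes listed and among the 24759 genes tested, which are those with a value above 0 in at least 1 library. Messenger RNA of rosette leaves was sequenced in 3 conditions with 2 biological replicates each, 6 libraries in all. According to the study, experimental plants were taken out of soil and kept overnight in humid chambers before the stress cycles began. Plants of condition W were watered and were sampled after that night, before any stress. Plants of condition S1 were air-dried once for 2 h. Plants of condition S3 were sampled in the third air-drying of 2 h, each earlier one having been followed by 22 h of rehydration. All plants had grown in soil at 22 °C with 12 h of light. The age of the plants was not given in the sources used here. The labels name both Col-0, as ecotype, and WS, as genotype, for every sample, and the study's methods name Col-0. No plants kept in water for as long as the S3 plants were sequenced, so the time out of soil and the number of stresses cannot be told apart.

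Plastids keep ribosomes of the bacterial type, which translate the proteins encoded in the plastid genome, among them the large subunit of Rubisco and core proteins of both photosystems. A part of the ribosomal proteins is encoded in the plastid genome itself. The others, including all 39 genes here, are encoded in the nucleus, translated in the cytosol and imported, so that building a plastid ribosome draws on both genomes. In leaves these ribosomes are abundant, and loss of many of their proteins gives pale or inviable plants.

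Promoter sequence is shown for 4 of these genes because they mark the range of the response: PRPL27 had the largest difference between S3 and W of all 39, PRPS10 the largest in the small subunit, PRPL6 the smallest in the large subunit and PSRP1 the smallest of all 39. The 120 bases directly upstream of each annotated gene start are given 5′ to 3′ on the strand of the gene, from the TAIR10.1 assembly with its RefSeq annotation. Capitals mark a whole match to site II (TGGGCC on either strand) or to the I-box (GATAAG on either strand). Site II is known from promoters of ribosomal protein and other growth-related genes, the I-box from light-regulated promoters. Further site II copies are not marked: that of PRPS10, from 121 bases before the start, is cut by the window edge. That of PRPL6, from 143 bases before the start, lies outside the window. The windows of PRPS10, PRPL6 and PSRP1 overlapped no other annotated gene, and the first 4 bases of the PRPL27 window lie in an annotated tRNA gene.
PRPS10, chr3:4221667-4221786, minus strand: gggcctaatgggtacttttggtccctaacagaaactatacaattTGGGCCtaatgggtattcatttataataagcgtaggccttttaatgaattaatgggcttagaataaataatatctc
PRPL27, chr5:16410662-16410781, plus strand: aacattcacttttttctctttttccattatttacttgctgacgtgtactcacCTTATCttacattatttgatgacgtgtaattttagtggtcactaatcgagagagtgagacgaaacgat
PRPL6, chr1:1503854-1503973, minus strand: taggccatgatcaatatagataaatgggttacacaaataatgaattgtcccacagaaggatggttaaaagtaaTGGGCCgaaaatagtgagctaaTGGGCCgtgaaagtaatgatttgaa
PSRP1, chr5:8365481-8365600, plus strand: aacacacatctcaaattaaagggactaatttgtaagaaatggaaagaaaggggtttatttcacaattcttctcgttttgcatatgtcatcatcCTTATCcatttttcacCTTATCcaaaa

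Over the 250 bases upstream of the start, site II occurred in 12 of the 39 genes (30.8%), beside 13.7% of all 27443 promoters of that length and 17.8% of the promoters of genes averaging 5 FPKM or more. It was present in 6 of the 9 small subunit genes, 5 of the 24 large subunit genes and 1 of the 6 PSRP genes. Of the 4 genes whose sequence is shown, PRPS10 and PRPL6 had it, and PRPL27 and PSRP1 did not. Whether site II goes with the size of the response over the 39 genes was not tested. The I-box occurred in 10 genes (25.6%, beside 12.3% of all promoters), with 2 copies in PSRP1, at 27 and 11 bases before the start, counted to the first base of the match. The telo-box (AAACCCT), the G-box (CACGTG), the letters ACGTGTC of the abscisic acid response element and CCAATC were found in 4, 3, 3 and 4 of the 39 genes, which is 10.3%, 7.69%, 7.69% and 10.3%. The shares over all promoters were 7.33%, 6.49%, 3.68% and 10.2%. Both strands were searched for each motif, the G-box and ACGTGTC can overlap each other, and a match describes letters only.

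The values are FPKM, fragments per kilobase of transcript relative to all mapped fragments, so levels can be set side by side between genes. Their sum over all genes was between 891240 and 974046 per library, and 21139 to 22457 genes per library had a value above 0. The files hold no read counts, so no counting interval is given. The W and S1 values carry the header of one common run of the authors' quantification and the S3 values that of another. In S3/S1 and S3/W, the run thus cannot be told apart from the third stress. Differences between S3 and the other conditions were also read after rescaling the libraries. Rescaling whole libraries cannot remove differences between runs in single genes. Reads in W were longer than in S1 and S3, and the study lists fewer mapped reads for both W libraries. In S1/W and S3/W, read length and depth therefore cannot be told apart from the stress. Nothing but the label biological says how far the 2 replicates of a condition were grown apart, so p-values measure the spread between these libraries.

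In watered leaves the family was highly expressed within a narrow range. Mean levels in W ran from 259 FPKM for PRPL9 to 853 FPKM for PSRP5, a 3.29-fold range with a median of 557.5 FPKM. Ordered by W mean among the 33555 genes listed, the members stood between the places 122 and 434, with a median of 197. In S1 the range was 5.16-fold and the median 296.6 FPKM, and in S3 it was 11.04-fold and the median 97.8 FPKM. The members thus lay farther apart after stress: the coefficient of variation among the 39 mean levels amounted to 28.0% under W, 40.5% under S1 and 62.9% under S3. Their median place among all genes was 433 in S1 and 1406 in S3.

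The summed level of the 39 genes was 23604 and 19296 FPKM under W, 12989 and 9971 under S1, and 4005 and 4152 under S3. The conditions did not overlap, and S3 had the lowest sums. As a share of all FPKM of the library, the family made up 2.52% and 2.17% under W, 1.33% and 1.03% under S1, and 0.426% and 0.463% under S3. In whole leaves, a loss of cells and a loss of RNA per cell cannot be told apart.

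**Figure D1:**
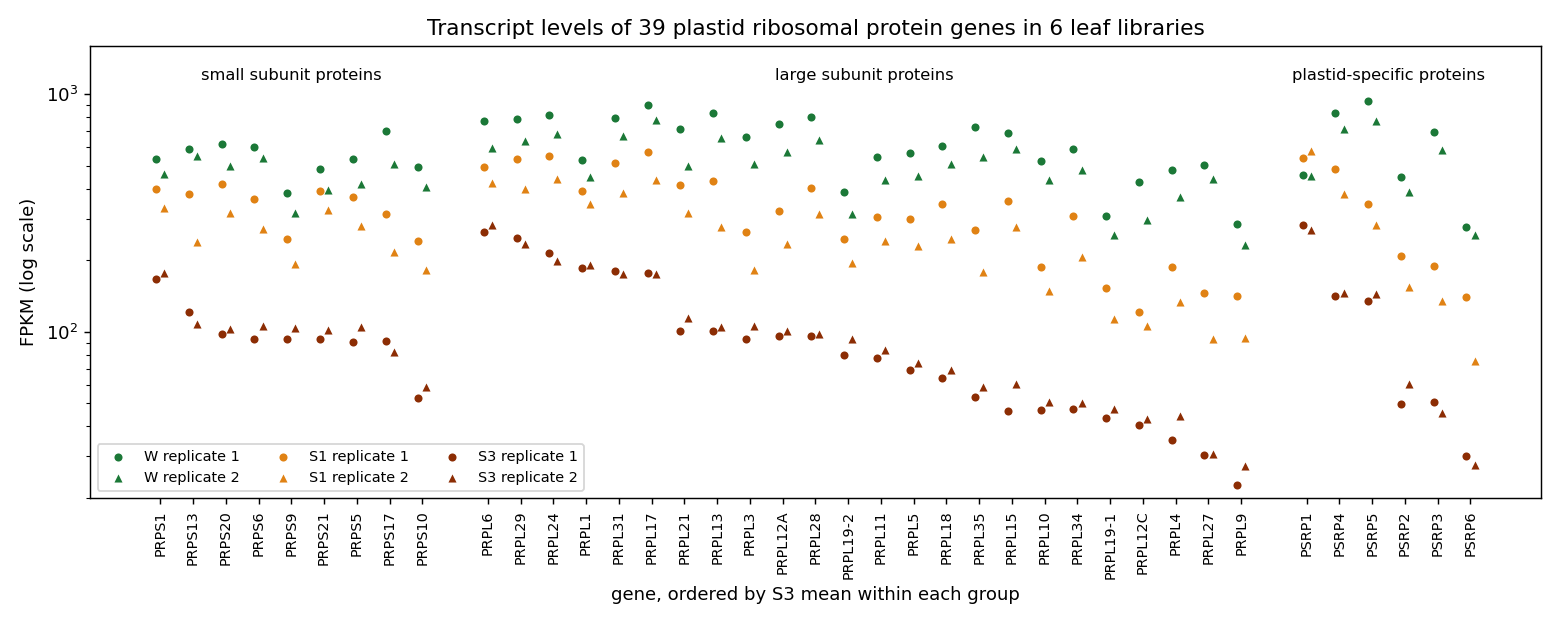
FPKM (log scale) of each of the 39 genes in the 6 libraries, with circles for replicate 1 and triangles for replicate 2 of W, S1 and S3, ordered by S3 mean within the small subunit, the large subunit and the PSRP genes. The S3 points lie lowest for every gene, and PSRP1 is the gene whose S1 points lie above its W points.

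The comparisons were made in 1 linear model of log2(FPKM + 1) over all 6 libraries, with limma's moderated test and Benjamini-Hochberg adjustment over the 24759 genes tested. A gene passed the criteria if its adjusted p was 0.05 or lower, its level changed by 1 or more on the log2 scale in either direction, and its mean in one of the conditions exceeded 0.374 FPKM, the 25th percentile. The first comparison, S1 with W, asks what a single dehydration changes. In S1, 19 of the 39 genes were lower than in W under the criteria, beside 12.1% of all genes tested, and 0 were higher, beside 13.7%. By the adjusted p alone 34 were lower (all genes 24.8%) and 0 higher (all genes 26.7%), and at an unadjusted p under 0.05, 1 was higher, PSRP1. The S1 replicates of 38 genes lay below both W replicates (all genes 36.1%). The median log2 fold change of the family was -0.95, beside 0.00 over all genes tested. The count of 19 fell to 10 without W replicate 1 and to 10 without S1 replicate 2.

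The comparison of S3 with S1 asks whether the repeated dehydration gives other levels than the first. Under the criteria 36 of the 39 genes were lower in S3 than in S1 (6.71% of all genes tested) and 0 were higher (5.55%), also at an unadjusted p under 0.05, and by the adjusted p alone all 39 were lower (15.6%, with 15.2% of all genes higher). The S3 replicates of all 39 lay below both S1 replicates (33.4% of all genes). The median log2 fold change was -1.69, beside 0.00 over all genes. PRPL1, PRPL6 and PRPL29 passed the adjusted p but stayed under a 2-fold change. Scaling every library to one sum let 35 genes pass, and with median-of-ratios size factors 36. Without S3 replicate 1 the count was 17 and without S3 replicate 2 it was 19, while the medians were -1.61 and -1.73.

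Between S3 and W, 38 of the 39 genes were lower under the criteria (14.4% of all genes tested), 0 were higher (15.3%), also at an unadjusted p under 0.05, and all 39 were lower by the adjusted p alone (26.1%, with 28.9% of all genes higher). The replicates did not overlap in any of the 39 (35.8% of all genes). The count of 38 was the same without any 1 library. The median log2 fold change was -2.60, beside 0.01 over all genes. Mean levels in S3 were between 6.44% (PRPL27) and 60.4% (PSRP1) of those in W, with a median of 16.4%. The comparisons share libraries with each other, so they are not independent of one another. S1 is shared by S1/W and S3/S1, W by S1/W and S3/W, and S3 by S3/S1 and S3/W.

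**Figure D2:**
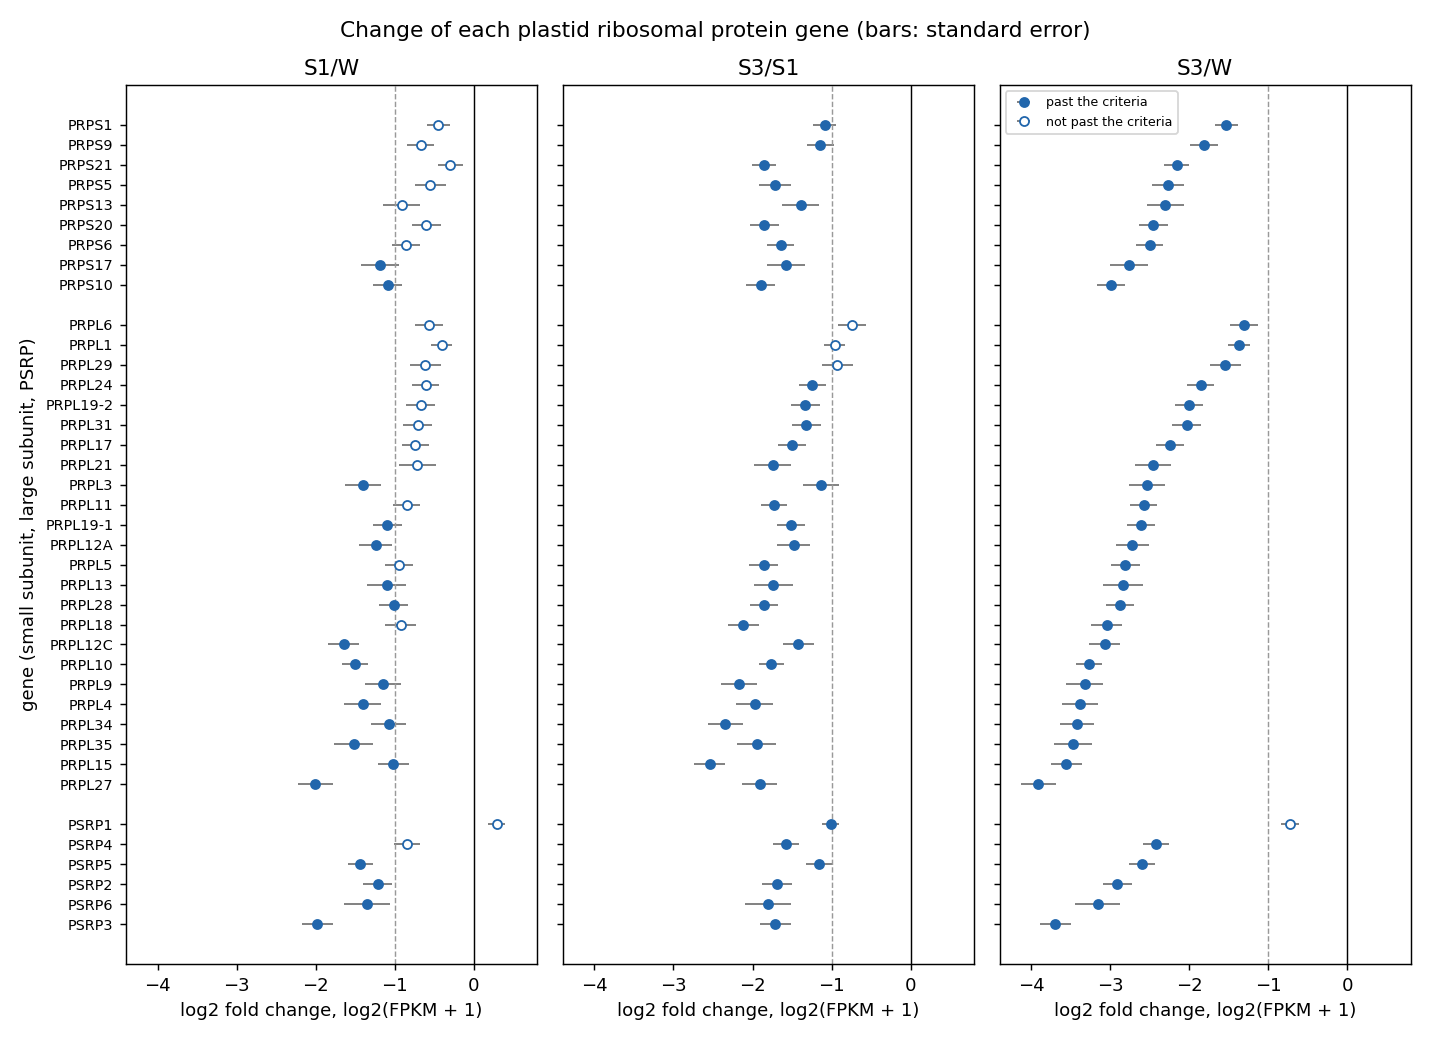
Log2 fold change on the log2(FPKM + 1) scale of each gene for S1/W, S3/S1 and S3/W, with bars of 1 standard error and filled points for genes past the criteria; the dashed line marks a 2-fold decrease. Filled points number 19, 36 and 38, and PSRP1 is the one gene to the right of 0 in S1/W.

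In the small subunit, 2 of 9 genes passed the criteria as lower in S1/W (12.1% of all genes tested) and 6 by adjusted p alone (24.8%). All 9 passed the criteria as lower in S3/S1 (6.71%) and in S3/W (14.4%). The median log2 fold changes were -0.67, -1.64 and -2.30. PRPS10 (AT3G13120), which in bacteria lies in the head of the small subunit, had 494 and 407 FPKM under W, 242 and 182 under S1 and 52.5 and 58.8 under S3. Its levels thus separated by condition with no overlap, and its log2 fold changes were -1.09 for S1/W (adjusted p = 0.00556, limma) and -1.90 for S3/S1. PRPS17 (AT1G79850), an early rRNA-binding protein in bacterial assembly, had 699.9 and 508 FPKM under W, 315 and 216 under S1 and 91.9 and 82.1 under S3. It was the other small subunit gene past the criteria in S1/W, at -1.19, and fell by 1.58 on the log2 scale from S1 to S3. PRPS13 (AT5G14320), of the subunit head, had 589.6 and 548 FPKM under W, 379 and 239.7 under S1 and 121 and 108 under S3. PRPS6 (AT1G64510) had 598 and 541 FPKM under W, 363 and 270.2 under S1 and 93.7 and 106 under S3. Both passed the adjusted p in S1/W (0.0240 and 0.0114, limma) with a fold change under 2.

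PRPS21 (AT3G27160) differed little between W and S1 and then had one of the larger S3/S1 changes of the subunit. It had 486 and 397 FPKM under W, 391 and 325 under S1, and 93.4 and 102 under S3, with log2 fold changes of -0.30 (adjusted p = 0.172, limma) and -1.86 (adjusted p = 0.00194). PRPS20 (AT3G15190), another protein of the subunit body, had 615 and 499.6 FPKM under W, 419.9 and 317 under S1 and 98.3 and 102 under S3, with log2 fold changes of -0.60 and -1.85. In both genes most of the distance between W and S3 lay between S1 and S3. PRPS1 (AT5G30510), whose bacterial counterpart binds mRNA during initiation, had the smallest S3/W change of the subunit. Its levels were 535 and 464 FPKM under W, 401 and 332 under S1 and 166 and 176 under S3, with -0.45 for S1/W (adjusted p = 0.0504, just above the limit), -1.09 for S3/S1 and -1.53 for S3/W. PRPS9 (AT1G74970), which in bacteria reaches the P site, had 385 and 315 FPKM under W, the lowest of the subunit, 247 and 193 under S1 and 93.5 and 104 under S3. PRPS5 (AT2G33800), known from bacterial ribosomes for its part in decoding accuracy, had 534 and 418 FPKM under W, 371 and 280.2 under S1 and 90.9 and 105 under S3, with an S1/W adjusted p of 0.0685.

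In the large subunit, 13 of 24 genes passed the criteria as lower in S1/W (12.1% of all genes tested) and 23 by adjusted p alone (24.8%). In S3/S1, 21 passed the criteria as lower (6.71%), and 24 did in S3/W (14.4%). The median log2 fold changes were -1.02, -1.73 and -2.76. PRPL27 (AT5G40950, chr5:16410782-16412114, plus strand), whose bacterial counterpart reaches towards the peptidyl transferase centre, had the largest S1/W and S3/W changes of the family. It had 506 and 439 FPKM under W, 145 and 93.6 under S1 and 30.2 and 30.5 under S3. Its log2 fold changes were -2.004 ± 0.22 (standard error) in S1/W, -1.91 ± 0.22 in S3/S1 and -3.91 ± 0.22 in S3/W, or 15.5-fold between the W and S3 means, with adjusted p-values of 0.00143, 0.00413 and 0.000202 (limma).

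PRPL15 (AT3G25920), PRPL34 (AT1G29070) and PRPL9 (AT3G44890) had the largest S3/S1 changes of the family, at -2.54, -2.34 and -2.17. PRPL15, a protein of the large subunit core, had 687 and 589 FPKM under W, 356 and 276 under S1 and 46.6 and 60.5 under S3. PRPL34, one of the smallest ribosomal proteins in bacteria, had 590.1 and 479.6 FPKM under W, 307 and 206 under S1 and 47.5 and 49.99 under S3. PRPL9 had 285 and 233 FPKM under W, 141 and 94.4 under S1 and 22.6 and 27.3 under S3, and had the lowest mean of all 39 genes in both W and S3. In all these genes the lowest library of S1 was more than 3-fold above the highest of S3. PRPL35 (AT2G24090) had 730.4 and 543 FPKM under W, 268 and 178 under S1 and 53.1 and 58.8 under S3, with log2 fold changes of -1.52 and -1.95. PRPL4 (AT1G07320), part of the wall of the peptide exit tunnel in bacteria, had 479.6 and 368 FPKM under W, 187 and 133 under S1 and 35.2 and 44.3 under S3, at -1.41 and -1.97.

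At the other end, PRPL6 (AT1G05190), PRPL1 (AT3G63490) and PRPL29 (AT5G65220) had the smallest S3/W changes of the large subunit and did not reach a 2-fold change in S1/W or S3/S1. PRPL6 had 769 and 595 FPKM under W, 494 and 422 under S1 and 264 and 283 under S3, with log2 fold changes of -0.57, -0.74 and -1.30. PRPL1, of the mobile L1 stalk, had 529.5 and 449 FPKM under W, 391 and 345 under S1 and 186 and 190.5 under S3. Its log2 fold changes were -0.41 (adjusted p = 0.0517, limma), -0.96 and -1.37. PRPL29, which in bacteria lies beside the tunnel exit, had 786 and 634 FPKM under W, 534 and 398 under S1 and 249 and 235 under S3, at -0.61, -0.93 and -1.54. Even so, all their S3 values lay below all their S1 values. PRPL17 (AT3G54210) had the highest mean of the large subunit genes in W and in S1, with 899 and 779 FPKM under W, 573 and 437 under S1 and 177 and 176 under S3. PRPL24 (AT5G54600), an early assembly protein in bacteria, had 823 and 683 FPKM under W, 548 and 439 under S1 and 215 and 199 under S3, and PRPL31 (AT1G75350), which bridges the subunits in bacteria, had 796 and 669.5, 515 and 386, and 181 and 175.

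The other large subunit genes, PRPL3 (AT2G43030), PRPL5 (AT4G01310), PRPL11 (AT1G32990), PRPL13 (AT1G78630), PRPL18 (AT1G48350), PRPL21 (AT1G35680) and PRPL28 (AT2G33450), had W means between 490.5 and 747 FPKM and S3 means between 66.6 and 108 FPKM. All 7 passed the criteria as lower in S3/S1 (6.71% of all genes tested) and in S3/W (14.4%). PRPL3, an initiator of bacterial assembly, was the one of these with a larger S1/W than S3/S1 change, -1.41 beside -1.13, from 663 and 509.6 FPKM under W to 262 and 182 under S1 and 93.6 and 105 under S3. PRPL11, at the base of the stalk that recruits translation factors, had 543 and 438 FPKM under W, 304 and 241 under S1 and 78.0 and 84.0 under S3.

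The stalk itself is built in bacteria from L10 and several copies of L12. PRPL10 (AT5G13510) had 526 and 435 FPKM under W, 188 and 149 under S1 and 46.8 and 50.9 under S3, with log2 fold changes of -1.51 (adjusted p = 0.00130, limma) and -1.76. For L12 the list holds PRPL12A (AT3G27830, chr3:10318455-10319920) and PRPL12C (AT3G27850, chr3:10324788-10325746), which lie on either side of PRPL12B on chromosome 3. PRPL12A had 748 and 569.6 FPKM under W, 323 and 235 under S1 and 95.9 and 100.5 under S3. PRPL12C had 429.7 and 297 FPKM under W, 121 and 106 under S1 and 40.5 and 42.9 under S3. Both passed the criteria in every comparison, with S1/W changes of -1.24 and -1.65 and S3/S1 changes of -1.48 and -1.42, and PRPL12A was the higher in every library. Their separate values are uncertain, since 525 of 564 aligned coding bases (93.1%) are identical and 183 windows of 75 bases occur in both transcripts, 19.6% of all such windows of PRPL12A and 20.7% of those of PRPL12C. The stretch of 90 coding bases with the most differences is shown as an example of where reads can separate the genes. It covers coding bases 29 to 118 of both genes in TAIR10.1, and capitals mark the 21 bases that differ.
PRPL12A: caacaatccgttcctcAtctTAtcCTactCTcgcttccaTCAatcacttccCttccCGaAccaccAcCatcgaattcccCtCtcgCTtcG
PRPL12C: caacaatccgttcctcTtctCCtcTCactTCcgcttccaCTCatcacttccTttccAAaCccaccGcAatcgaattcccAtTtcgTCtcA

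PRPL19-1 (AT4G17560) and PRPL19-2 (AT5G47190), on chromosomes 4 and 5, are 81.9% identical over 675 aligned coding bases and share no window of 75 bases. PRPL19-1 had 309 and 257 FPKM under W, 153 and 113 under S1 and 43.3 and 47.3 under S3, and PRPL19-2 had 389 and 313, 245 and 194, and 79.8 and 93.1. PRPL19-2 was the higher in every library. It had the smaller changes, -0.67 for S1/W and -1.33 for S3/S1 beside -1.09 and -1.52 for PRPL19-1, a difference that was not tested.

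PSRP3 (AT1G68590), PSRP5 (AT3G56910), PSRP6 (AT5G17870) and PSRP2 (AT3G52150) passed the criteria in S1/W, and PSRP4 (AT2G38140) passed the adjusted p alone. All 6 passed the criteria as lower in S3/S1 (6.71% of all genes tested), and all but PSRP1 did in S3/W (14.4%). In S1/W the share over all genes tested was 12.1%. PSRP3, a small subunit protein with a counterpart in cyanobacteria, had 692 and 581 FPKM under W, 190.1 and 134 under S1 and 50.5 and 45.7 under S3. Its S1/W log2 fold change of -1.98 ± 0.20 (standard error) came next to that of PRPL27, and its S3/W change of -3.70 was the second largest of the family. PSRP5 and PSRP6 are additional proteins of the large subunit. PSRP5 had 935 and 771 FPKM under W, the highest W mean of all 39 genes, 346 and 283 under S1 and 135 and 145 under S3. PSRP6 had 276 and 255 FPKM under W, 140.2 and 75.7 under S1 and 30.0 and 27.6 under S3. Both had their levels separated by condition, with S1/W changes of -1.44 and -1.36 and S3/S1 changes of -1.16 and -1.81. PSRP2, an RNA-binding protein of the small subunit, had 449.9 and 389 FPKM under W, 208 and 155 under S1 and 49.8 and 60.4 under S3. PSRP4, a small basic protein of the small subunit, had 838 and 716 FPKM under W, 486 and 381 under S1 and 141 and 146 under S3.

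PSRP1 (AT5G24490, chr5:8365601-8367460, plus strand) is not a structural ribosomal protein. It is related to the bacterial hibernation factors, which bind the small subunit where mRNA and tRNA would lie and keep ribosomes idle. It had 459 and 453 FPKM under W, 538 and 577 under S1 and 282 and 269 under S3. Both S1 values lay above both W values, and both S3 values lay below them. Its S1/W log2 fold change was 0.29 ± 0.11 (standard error, adjusted p = 0.0835, limma), which did not pass. It was the one positive S1/W value among the 39. After correction for GC content and transcript length it was 0.34 (adjusted p = 0.0497, limma), still under a 2-fold change. With the replicate number added as a block, the adjusted p was 0.0619 (limma). The S3/S1 change of PSRP1 was -1.01 (adjusted p = 0.00368) and its S3/W change -0.73 (adjusted p = 0.00375). The S3/S1 change lay at the limit of 2-fold and fell short of it at -0.93 with every library scaled to one sum, at -0.95 after correction for GC content and transcript length, at -0.96 without S1 replicate 2 and at -0.98 without S3 replicate 2.

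The make-up of the family pool changed accordingly. PSRP1 made up 1.94% and 2.35% of the summed FPKM of the 39 genes in the W libraries, 4.14% and 5.78% under S1 and 7.05% and 6.48% under S3. Relative to the median member of the same library, which cancels any scaling of whole libraries, PSRP1 stood at 0.778 and 0.911 under W, 1.55 and 2.40 under S1 and 3.02 and 2.68 under S3. It went from below the middle of the family to the top in S3 replicate 1 and to just under PRPL6 in replicate 2. PRPL6 went from 1.30 and 1.20 times the median member in W to 2.83 and 2.82 in S3, and PRPL1 from 0.897 and 0.903 to 1.99 and 1.90. PRPL27 went from 0.857 and 0.882 under W to 0.420 and 0.389 under S1 and 0.324 and 0.304 under S3, PSRP3 from 1.17 and 1.17 to 0.541 and 0.455 in S3, and PRPL15 from 1.16 and 1.18 to 0.4995 and 0.603. PRPL15 was still at 1.03 and 1.15 in S1, whereas PSRP3 was already at 0.549 and 0.559. These ratios are descriptions, and no test was made of them.

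**Figure D3:**
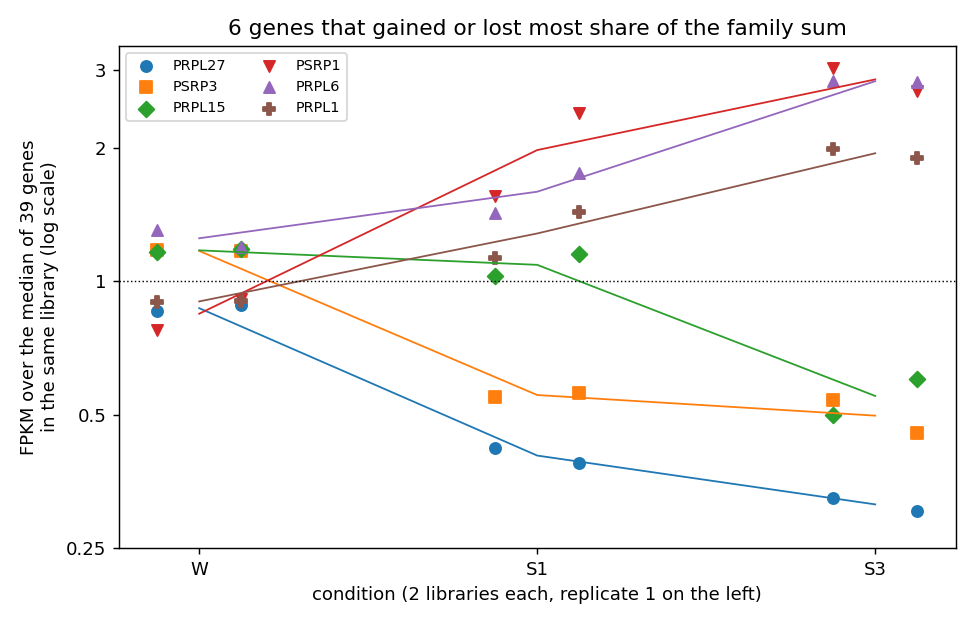
FPKM of 6 genes divided by the median of the 39 genes in the same library (log scale), with 2 points per condition, replicate 1 on the left, and lines through the means; the genes are the 3 with the largest gain and the 3 with the largest loss of share of the family sum between W and S3. PSRP1 goes from 0.778 and 0.911 in W to 3.02 and 2.68 in S3, and PRPL27 from 0.857 and 0.882 to 0.324 and 0.304.

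The members also moved together between replicates. In W all 39 genes were higher in replicate 1 than in replicate 2, by a median of 1.22-fold, whereas 48.2% of all genes averaging 5 FPKM or more were. In S1, 38 of the 39 were higher in replicate 1 (median 1.32-fold, all such genes 50.8%), the exception being PSRP1. In S3, 9 of the 39 were (median 0.934, all such genes 54.3%). The 39 genes are therefore not 39 independent measurements of a condition, and the counts per family above describe 2 libraries per condition. Their transcripts were 610 to 1588 bases long, with a median of 1009 beside 1660 over the genes tested, and had a median GC content of 42.0% beside 41.3%. With each library corrected for GC content and length, 15, 35 and 38 genes passed the criteria in S1/W, S3/S1 and S3/W.

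The other factors of plastid translation were taken from a list of 28 nuclear genes for initiation, elongation, termination and recycling, ribosome assembly and rRNA handling, and nascent chains. Of these, 14 were lower in S1 than in W under the criteria (12.1% of all genes tested) and 0 higher (13.7%). In S3/S1, 6 were lower (6.71%) and 0 higher (5.55%), and in S3/W 21 were lower (14.4%) and 0 higher (15.3%). The median log2 fold changes of the list in S1/W, S3/S1 and S3/W were -0.999, -0.52 and -1.59, beside -0.95, -1.69 and -2.60 in the ribosomal proteins. By the adjusted p alone, 16 of the 28 were lower (15.6% of all genes tested) and 2 higher (15.2%) in S3/S1, whereas all 39 ribosomal protein genes were lower. No test was made of the difference between the lists. The 2 with higher levels in S3 than in S1 were RBF1, a counterpart of a bacterial 30S maturation factor, and PrfB3, of the release factor family. Compared with W, RBF1 was still lower in S3 under the criteria, at -1.60. RBF1 had 49.5 and 45.2 FPKM under W, 11.5 and 9.17 under S1 and 15.6 and 14.3 under S3, and PrfB3 had 15.1 and 14.1, 8.32 and 8.40, and 13.8 and 14.9.

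All 5 elongation factors were lower by the adjusted p in both S1/W (24.8% of all genes tested) and S3/S1 (15.6%). EF-P, which in bacteria helps the ribosome through runs of proline, had 355 and 301 FPKM under W, 83.3 and 56.5 under S1 and 19.7 and 20.6 under S3, at -2.24 and -1.72, the largest S3/W change of the list at -3.95. SVR9, an initiation factor of the IF3 type, had the largest S1/W change, -2.33, from 124 and 92.7 FPKM under W to 23.8 and 17.6 under S1 and 11.1 and 10.6 under S3. EF-Tu, which delivers aminoacyl-tRNA, had 1079 and 880.2 FPKM under W, 457 and 377 under S1 and 221 and 225 under S3. SCO1, the plastid elongation factor G, had 239.8 and 216 FPKM in W and 61.5 and 55.9 in S1, at -1.94 for S1/W, and PETs, the factor that recharges EF-Tu, was at -1.31 and -1.004. Among the assembly genes, the RNA helicase RH3 had 259.9 and 207 FPKM under W, 61.9 and 57.0 under S1 and 56.1 and 68.5 under S3, so that its S1 and S3 values overlapped. The assembly genes RBF1, ObgC, RH22, RNJ, BPG2 and CSP41b also passed the criteria in S1/W, as did IF1 of initiation and TIG1. Their changes lay between -2.10 (RBF1) and -1.02 (TIG1 and IF1). Besides EF-P and PETs, the genes past the criteria in S3/S1 were the ribosome recycling factor RRF (-1.20), the rRNA-binding CSP41a (-1.48) and CSP41b (-1.45), and the trigger factor TIG1 (-1.39), which receives new chains at the tunnel exit.

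**Figure D4:**
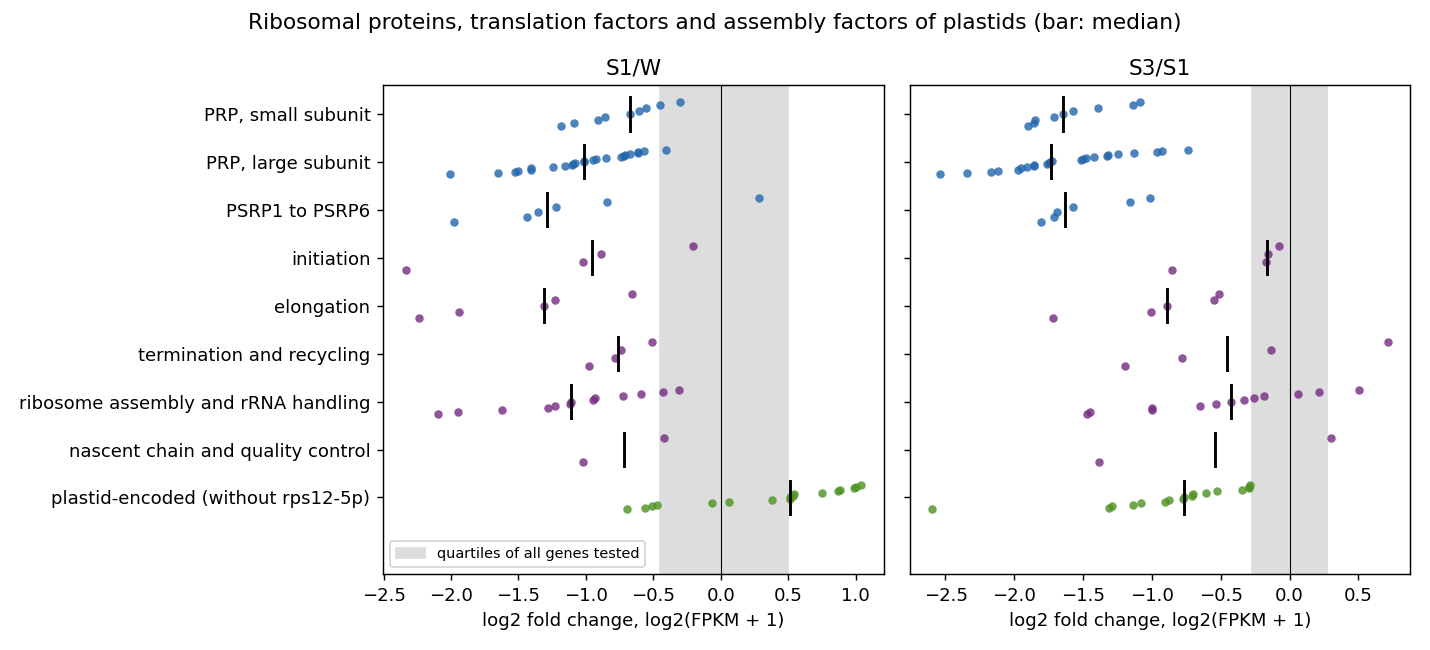
Log2 fold changes on the log2(FPKM + 1) scale for S1/W and S3/S1 of the 39 genes by group, of the 28 translation and assembly factors by step, and of 17 plastid-encoded ribosomal protein genes (the entry of the 5′ part of rps12 is left out), 1 point per gene, with vertical bars at the medians and grey bands for the quartiles of all genes tested. In S3/S1 the ribosomal protein medians are -1.64, -1.73 and -1.63, and the factor medians lie between -0.89 and -0.16.

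Nuclear genes of the same kind outside the list were RPS16-1, PSRP3/2 and PRPL12B. RPS16-1 had 907 and 833 FPKM under W, 516 and 468 under S1 and 394 and 388 under S3, at -0.82 (adjusted p = 0.00502, limma), -0.33 (adjusted p = 0.123) and -1.15. PSRP3/2, a second PSRP3 gene, had 12.4 and 10.7 FPKM under W, 9.27 and 8.07 under S1 and 6.29 and 6.67 under S3, far below PSRP3 in every library. PRPL12B is listed at 0 in all 6 libraries.

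Of 25 plastid-encoded ribosomal protein entries, 18 had a value above 0. Their transcripts mostly lack long poly(A) tails, and the libraries were made by a kit that selects poly(A) RNA, so these values do not measure total plastid transcripts. Under the criteria 0 were lower (12.1% of all genes tested) and 3 higher (13.7%) in S1 than in W. These were rps2 (0.794 and 0.798 FPKM in W, 2.30 and 3.14 in S1), rpl20 (1.56 and 1.03, then 3.53 and 3.59) and the entry of the 5′ part of rps12. The rps12 entry is listed at 0 in both W libraries and at 69.1 and 78.5 FPKM in S1. Whether its W values are failed estimates was not tested, so its comparisons with W are uncertain. In S3/S1 2 were lower (6.71% of all genes tested) and 0 higher (5.55%). The lower ones were rpl14 (31.9 and 25.1 FPKM in S1, 11.1 and 14.9 in S3) and rps16, which is listed at 0 in S3. In S3/W 1 was lower (14.4% of all genes tested), rpl36, whose W replicates were 594 and 97.8 FPKM. The 1 higher (15.3%) was the entry of rps12. The median log2 fold changes, with the rps12 entry included, were 0.53, -0.74 and -0.42.

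Markers of leaf and stress were read beside these values. Over all genes tested, 12.1% were lower and 13.7% higher in S1/W under the criteria, and 6.71% and 5.55% in S3/S1. Of 9 genes of photosynthetic leaf cells, 7 were lower in S1 than in W under the criteria and 2 higher, 5 were lower and 1 higher in S3 than in S1, and the summed level was 24170 to 29490 FPKM in W, 24790 to 33250 in S1 and 12130 to 14990 in S3. The 2 higher ones, RBCS1A and CAB1, are listed at 0 in both W libraries, although these are among the most abundant leaf mRNAs, so their sums do not compare W with the rest. Of 4 senescence markers, SAG12 is listed at 0 throughout and the other 3 were higher in S1 than in W, the summed level being 34.1 to 43.3 FPKM in W, 345 to 431.5 in S1 and 361 to 424 in S3. All 4 dehydration markers were higher in S1 than in W, with sums of 191 to 229 FPKM in W, 4328 to 4706 in S1 and 15820 to 17820 in S3. RAB18 made up most of the S3 sums, with 332 and 337 FPKM under S1 and 10796 and 12194 under S3. RAB18, RD29B and LTI30 were higher in S3 than in S1 under the criteria. RD29A went the other way, from 3586 and 3661 FPKM under S1 to 2064 and 2462 under S3. Of 6 genes of dividing cells, 1 was lower in S1 than in W under the criteria and 0 in S3 than in S1, with sums of 8.83 to 14.0 FPKM in W, 3.70 to 5.36 in S1 and 3.04 to 4.13 in S3. Root and flower markers summed to at most 6.72 and 1.36 FPKM in any library, with CASP1 and RHD6 at 0 throughout and WOX5 making up nearly all of the root sum in S1. The part of leaf cell state, of senescence and of dividing cells in the ribosomal protein values was not tested.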

How the data were processed

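Per the file headers, the labels and the study's methods, the authors mapped reads to TAIR10 with TopHat and bowtie and deposited FPKM values per gene and replicate from Cuffdiff, and CASAVA 1.8.2 is among the tools named in the submitters' processing notes. W and S1 appear to come from one Cuffdiff run and S3 from another. The deposited tables hold no counts and no coordinates, so depth per gene is unknown. Steps between the lowest values put 1 read at 1.22 times as much FPKM in W replicate 1 as in replicate 2, 1.10 times in S1 and 1.08 times in S3, so replicate 1 was the shallower library in each condition.

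Conditions were taken from the labels. log2(FPKM + 1) of the 24759 genes above 0 in a library was fitted over all 6 libraries, by condition alone and with a variance trend, in limma 3.58.1 (R 4.3.3), with 3 residual and 2.07 prior degrees of freedom. Fold changes are on that scale. Over 14373 genes averaging 5 FPKM or more in a condition, the S1/W, S3/S1 and S3/W changes had medians of 0.09, 0.01 and 0.14 (log2). Full values are given for the largest and smallest changes of each group, the PSRP genes, the paralog pairs and the extremes of level. Sequences and coordinates are from TAIR10.1 with RefSeq annotation. Python 3.11.15, pandas 2.3.3, numpy 2.4.6 and matplotlib 3.10.9 were used otherwise, and the fit was tested on simulated data. The members, the lists and the motifs were chosen with earlier results of these data known. Alternatives were library scaling by median-of-ratios size factors or to one sum, a pseudocount of 0.1, a filter of 1 FPKM, no variance trend, only the 4 libraries compared, the replicate block, a GC and length correction with and without the block, no criterion on the fold change, and each library left out.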

Additional observations from a re-analysis of the deposited data

How the results depend on the processing

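In every setting tried, no single gene of the 39 passed the criteria in the opposite direction. Judged by the adjusted p alone, with no limit on the change, 34 of the 39 were lower in S1 than in W in place of 19. Leaving out 1 library at a time gave 10 to 25 lower genes in S1/W, 17 to 37 in S3/S1 and 38 in S3/W, with medians from -1.20 to -0.75, from -1.90 to -1.42 and from -2.73 to -2.46. The lowest counts came without W replicate 1 or S1 replicate 2 (10 and 10) and without S3 replicate 1 or 2 (17 and 19). An arm with 1 library was then assumed to vary like the others. Over the other settings the counts were 15 to 34, 35 to 39 and 38 to 39. With the replicate number as a block the counts were 19, 36 and 38. Same-numbered libraries were not shown to be paired, their deviations correlating at 0.19 for W and S1, -0.03 for S1 and S3 and 0.02 for W and S3 over 14150 genes, and the block changed no call. Of 585 fits of single genes, 35 lost and 12 gained a call in S1/W, 49 lost and 2 gained one in S3/S1, and 0 changed in S3/W. With 2 libraries per condition, no library was tested as outlying.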
